A study of Mus musculus with 12 samples.

Results

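Heterotrimeric G protein subunit genes were examined in mouse thymocytes that carry or lack a pair of microRNA genes. The members are 10 genes listed by symbol, out of 55335 gene rows in each count table: 5 alpha subunit genes (Gnai2, Gnai3, Gnaq, Gna13, Gnas), 4 beta subunit genes (Gnb1, Gnb2, Gnb4, Gnb5) and 1 gamma subunit gene (Gng2). Gnb4 was chosen by its measured KO-to-WT difference in these libraries, and the other 9 genes were set against it. Its difference between genotypes is therefore given as a description with no test. The libraries came from 3 wild-type (WT) mice and 3 mice with a miR-181a/b-1 knockout (KO), all 6 weeks old and kept under SPF (specific pathogen-free) conditions. Thymocytes, the developing T cells of the thymus, were passed through a strainer of 70 µm and put into DPBS holding cycloheximide, a drug that stalls ribosomes, at 0.1 mg/ml. RNA-seq and ribosome footprinting, which sequences the mRNA fragments that ribosomes protect from nuclease, gave 3 libraries per genotype and assay. The labels give no strain, knockout allele or sorting step, and do not say which RNA-seq and footprint libraries share a mouse.

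A heterotrimeric G protein couples a receptor of the cell surface to enzymes inside the cell. The alpha subunit binds GTP when the receptor is engaged and separates from the beta-gamma dimer, and both parts act on effectors until the alpha subunit hydrolyses its GTP. In thymocytes, chemokine receptors that signal through Gi direct cells between cortex and medulla and out of the organ. Gs-coupled receptors raise cyclic AMP. The beta subunits of Gnb1, Gnb2 and Gnb4 are close relatives, whereas the Gnb5 product pairs mainly with certain RGS proteins.

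The sequences below are shown because the deleted pair, Mir181a-1 and Mir181b-1, encodes miR-181a and miR-181b, and because miR-181c and miR-181d, from genes outside the deleted pair, are their family. Each is a mature miR-181 strand from RefSeq (GRCm38.p6), 5′ to 3′, with the seed, bases 2 to 8, in capitals.
mmu-miR-181a-5p: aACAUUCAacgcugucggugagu
mmu-miR-181b-5p: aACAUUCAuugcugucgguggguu
mmu-miR-181c-5p: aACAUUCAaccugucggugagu
mmu-miR-181d-5p: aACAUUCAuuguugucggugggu
All 4 share the seed ACAUUCA. The miR-181a strand of the deleted pair lies at chr1:137966468-137966490 and the miR-181b strand at chr1:137966650-137966673, both on the plus strand. Mir181a-2 and Mir181b-2 on chromosome 2 encode the same mature strands of miR-181a and miR-181b, so neither strand is encoded by the deleted pair alone. Transcripts of the G protein genes were not searched for matches to the seed.

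Depth ranged from 4479182 to 8180286 gene reads over the 6 RNA-seq libraries and from 4069968 (KO 3) to 17859770 over the 6 footprint libraries. Mir181a-1 stood at 166, 133 and 146 CPM (a gene's reads scaled to library size) in the WT footprint libraries and at 0.464, 1.04 and 0.982 CPM in the KO footprint libraries. In RNA-seq its row held 57 WT and 67 KO reads and was not called (edgeR FDR 0.756), so it checks the labels of the footprint libraries only. RNA-seq directions below are those of the libraries labelled WT and KO. Within each assay, libraries with the same number deviated from their group means in opposite directions: over 7890 genes in RNA-seq the correlation was -0.98 to -0.94, and over 7140 genes in footprints it was -0.99 for each number. Pairs with different numbers correlated at 0.17 to 0.71 and at 0.38 to 0.63. They were taken across genes, and genes are not independent replicates. The tables are labelled as adjusted counts, without a statement of what was adjusted. The SDs, SEs and p-values below describe the spread of these deposited values and may not measure the spread between mice. Beside the main test, the result with the replicate number as a block is given where it ends a call. The 12 thymocyte markers summed to 14340 to 15880 CPM in WT and 13520 to 14690 CPM in KO RNA-seq. Rag1 held the largest part of this sum (means of 7173 CPM in WT and 5755 in KO). None of the 12 was called in RNA-seq, where 6.91% of all genes were. In footprints 5 were called, or 41.7% beside 17.6% of all genes. Cd4 and Themis were higher in KO there, and Rag1, Ptcra and Lck lower. With the block the call of Cd4 alone remained. None of the markers of B cells, myeloid cells, erythroid cells, thymic epithelium, fibroblasts or endothelium was at 0 throughout an assay. Among them, Hbb-bs and Krt5 were called lower in KO RNA-seq, and Pdgfrb and Pecam1 higher. In footprints Cd79b, Blk, Pdgfrb and Pecam1 were called higher, and Ctss, Alas2, Epcam and Krt14 lower. With the block the footprint call of Cd79b alone remained. Of the summed levels of these 6 lists in RNA-seq, that of erythroid cells was lower in KO (46.6 to 58.9 CPM, against 76.6 to 91.8 in WT), as was that of thymic epithelium (28.7 to 33.7 against 37.5 to 43.9 CPM). That of endothelium was higher (204.5 to 215 against 172 to 178 CPM), and in footprints it alone was without overlap between genotypes (157 to 162 CPM in KO against 147 to 151 CPM in WT). Pecam1 alone made up most of the endothelial sum (RNA-seq means of 171 CPM in WT and 203 in KO, footprint means of 137 and 150). It was called higher in KO in both assays (edgeR FDR 0.0358 and 0.0423). Other markers of the list went both ways (WT mean first). Among those lower in KO were Cdh5 (1.25 and 0.816 CPM) and Flt1 (1.06 and 0.719 CPM) in RNA-seq, where both were under the low-count filter. Esam was lower in KO footprints (1.11 and 0.702 CPM, not called) and higher in KO RNA-seq (0.859 and 1.17 CPM, under the filter). Kdr was higher in KO in RNA-seq (1.37 and 1.94 CPM) and in footprints (4.75 and 5.03 CPM), called in neither. The sum is thus mainly that of 1 gene. The part of these cells in the results was not tested. In bulk thymocytes, fewer cells of a type and less RNA per cell cannot be told apart.

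Gnb4 (ENSMUSG00000027669.14), a beta subunit gene, stood about 4 times higher in KO RNA and over 3 times higher in KO footprints. Gng2, a gamma subunit gene, rose in both assays, and Gnaq, which encodes the Gq alpha subunit that activates phospholipase C beta, rose in footprints. The other 7 genes, among them the Gi and Gs alpha genes and both of the other main beta genes, were not called in either assay. Of the 9 genes set against Gnb4, 1 was called in RNA-seq, where 6.91% of the 13652 genes tested were called (edgeR quasi-likelihood test, Benjamini-Hochberg FDR under 0.05). In footprints 2 of the 9 were called, where 17.6% of 13509 genes were. All 10 members passed the filter on low counts in both assays.

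**Figure D1:**
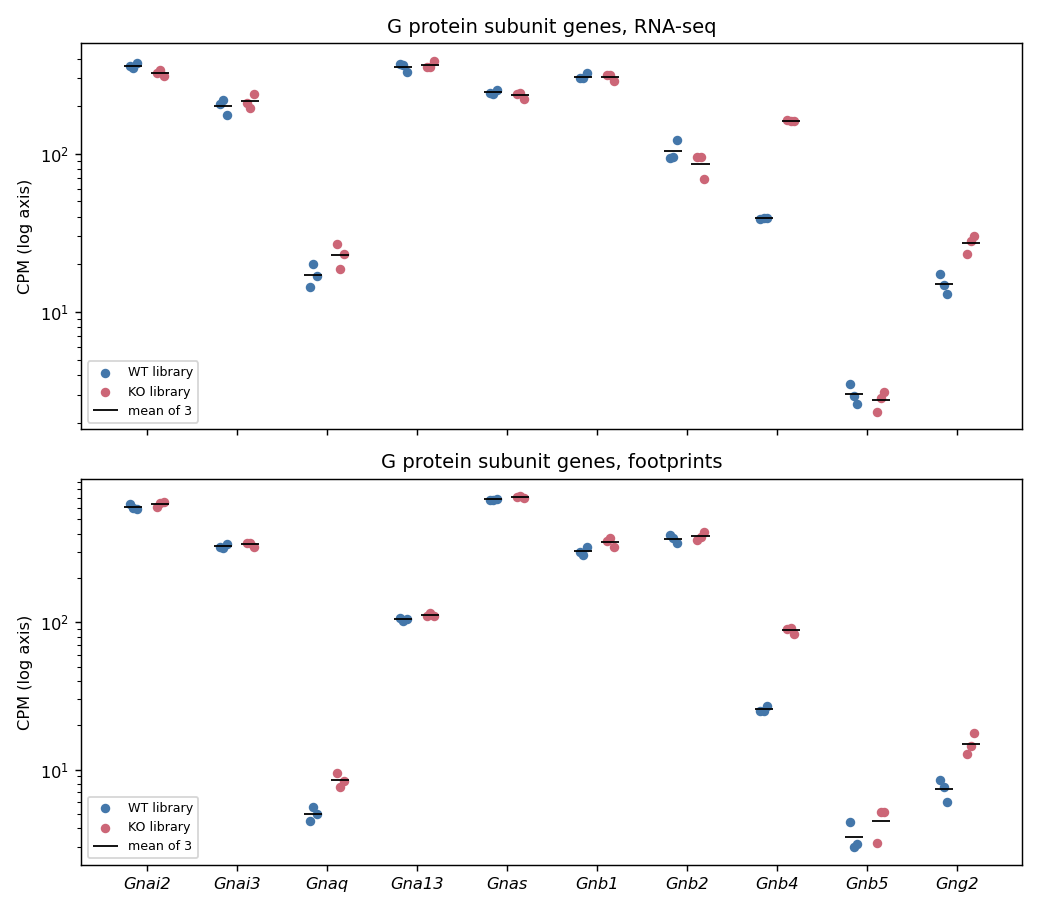
CPM of the 10 G protein subunit genes in every library, RNA-seq above and footprints below, on log axes; points are libraries, blue for WT and red for KO, and black lines are means of 3. The Gnb4 points of KO lie far above those of WT in both panels (161 to 162 against 38.6 to 39.2 CPM in RNA-seq), and the Gng2 points also do not overlap.

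In RNA-seq Gnb4 measured 38.63, 39.19 and 39.12 CPM in the 3 WT libraries and 162.4, 162.0 and 160.7 CPM in the 3 KO libraries. The genotypes did not overlap, and the libraries of each genotype lay within a few percent of each other. The means were 39.0 ± 0.30 CPM in WT and 162 ± 0.89 in KO (n = 3, SD), a 4.15-fold difference (log2 fold change 2.05, SE 0.05). This spread was smaller than that of counting alone. The Poisson error of the underlying 243 to 284 reads per WT library amounts to 2.38 CPM and that of the 684 to 1288 reads per KO library to 5.04 CPM. Variance ratios as low as those of Gnb4 in both genotypes were found in 0.784% of genes in RNA-seq, where the median ratio of observed to Poisson variance was 1.53 in WT and 1.51 in KO. The spread between the RNA-seq values of Gnb4 is thus no measure of its precision, and the counting error is the larger one.

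In footprints Gnb4 measured 25.07, 24.95 and 27.10 CPM in WT and 90.64, 90.76 and 83.46 CPM in KO, again with no overlap. The means were 25.7 ± 1.21 and 88.3 ± 4.18 CPM (n = 3, SD), a 3.43-fold difference (log2 fold change 1.79, SE 0.05). Here the spread was near counting error, with variance ratios of 0.70 in WT and 1.03 in KO. In the authors' deposited table the log2 fold change of Gnb4 is 1.91 in RNA and 1.66 in footprints. In RNA-seq 15 genes had a larger rise (log2 fold change) than Gnb4, and 2 of them had at least its average level. Falls were not counted. In footprints these counts were 29 and 4.

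The make-up of beta subunit reads differed between the genotypes. Of all reads of the 5 beta genes, Gnb4 took 8.85%, 8.98% and 8.01% in the WT RNA-seq libraries and 28.3%, 28.1% and 30.9% in the KO libraries. Its share of beta footprints was 3.65% ± 0.21 in WT and 10.6% ± 0.53 in KO (n = 3, SD). Long transcripts give more reads than short ones, so these are shares of reads and not of protein or of molecules. Summed over the 5 genes, beta reads stood at 454 ± 29.8 CPM in WT and 557 ± 32.1 in KO RNA-seq, and at 705 ± 18.1 and 830 ± 19.6 CPM in footprints (n = 3, SD). In neither assay did the sums of the genotypes overlap. The 16 alpha genes summed to 1243 ± 16.8 CPM in WT and 1221 ± 12.4 in KO RNA-seq, with ranges that overlapped. In footprints the alpha sums were 1748 ± 28.8 and 1827 ± 29.4 CPM, without overlap. The 12 gamma genes summed to 66.0 ± 5.10 and 83.7 ± 6.95 CPM in RNA-seq and to 91.3 ± 5.85 and 105 ± 6.94 CPM in footprints, without overlap in either assay, so that separation of the sums was not limited to the beta genes. These sums include Gnb4 or were computed after its change was known, so they carry no test.

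**Figure D2:**
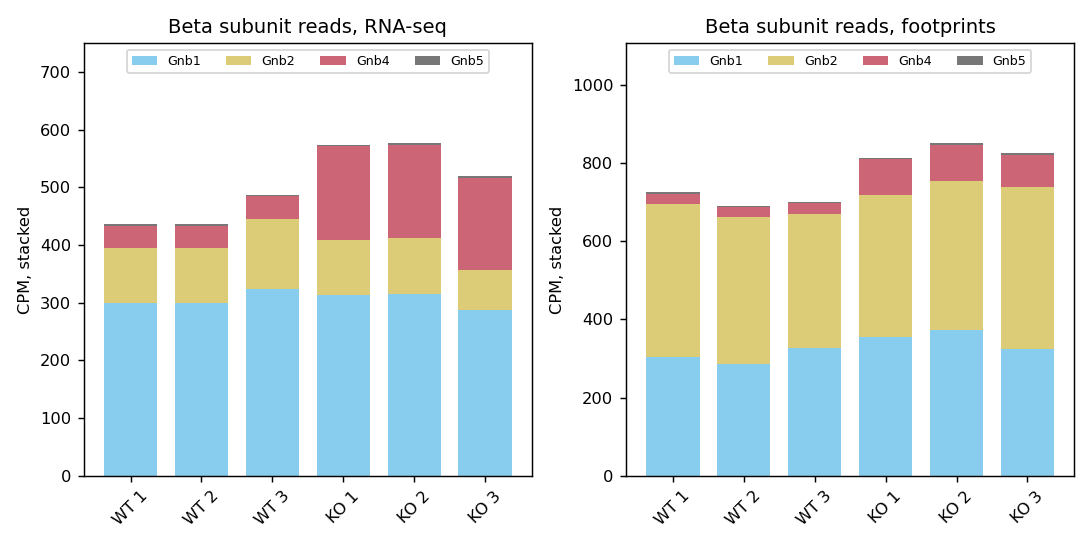
Stacked CPM of the beta subunit genes Gnb1, Gnb2, Gnb4 and Gnb5 in each library, RNA-seq at left and footprints at right; Gnb3, at under 1 CPM, is not drawn. The Gnb4 segment widens in all 3 KO libraries of each assay, and the stacks of KO are taller than those of WT.

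The other beta genes did not pass the test. Gnb1, a broadly expressed beta subunit, stood at 299.7, 299.2 and 323.7 CPM in WT RNA-seq and at 313.9, 316.1 and 287.2 CPM in KO, with overlap (log2 fold change -0.01, edgeR FDR 0.951). In footprints it measured 302.5, 285.8 and 326.3 CPM in WT and 354.5, 373.0 and 325.0 CPM in KO. The lowest KO library lay below the highest WT library, and the difference was not called (log2 fold change 0.21, SE 0.07, edgeR FDR 0.0873). Gnb2, another broadly expressed beta subunit, had 104 ± 15.9 CPM in WT and 86.7 ± 15.3 in KO RNA-seq (n = 3, SD; edgeR FDR 0.369). WT 3 at 122.3 CPM and KO 3 at 69.0 CPM stood apart from the other 4 libraries, which lay between 94.6 and 95.9 CPM. Those 2 libraries share a number and deviated in opposite directions. Same-numbered libraries did so at all 3 numbers in every member and assay, except for Gnb4 in RNA-seq (2 numbers). Its footprints were 371 ± 24.7 and 386 ± 24.8 CPM (n = 3, SD; edgeR FDR 0.621). Gnb5, the divergent beta subunit, was scarce, at 3.01 ± 0.45 and 2.77 ± 0.39 CPM in RNA-seq and 3.50 ± 0.79 and 4.48 ± 1.149 CPM in footprints (n = 3, SD). Its 53 to 163 reads per genotype and assay leave wide errors, with an SE of 0.25 on the log2 scale in footprints (edgeR FDR 0.423, and 0.845 in RNA-seq). A difference of the size seen for Gnb4 would lie far outside the SE of each of these 3 genes.

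Gng2 (ENSMUSG00000043004.13), whose product forms dimers with beta subunits and anchors them to the membrane, rose in both assays. In RNA-seq it measured 17.49, 14.78 and 12.95 CPM in WT and 23.41, 27.94 and 30.06 CPM in KO. The lowest KO library was above the highest WT library (log2 fold change 0.85, SE 0.14, edgeR FDR 0.024). This call ended with the replicate block (FDR 0.0887) and when WT 2, WT 3, KO 2 or KO 3 was left out (edgeR FDR up to 0.0834). In footprints Gng2 measured 8.47, 7.55 and 6.07 CPM in WT and 12.71, 14.49 and 17.67 CPM in KO. Again no library overlapped, and the log2 fold change was 0.95 (SE 0.15, edgeR FDR 0.00974). The footprint call held with the block (edgeR FDR 0.0329) and in all 6 omissions of 1 library. The authors' deposited table lists Gng2 as significantly up in both assays, with log2 fold changes of 0.67 and 0.72. Among the reads of the 12 gamma genes, Gng2 took 22.8% ± 2.197 in WT and 32.4% ± 2.27 in KO RNA-seq, and 8.04% ± 1.02 and 14.2% ± 1.69 in footprints (n = 3, SD).

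Among the alpha genes, Gnaq (ENSMUSG00000024639.5) was the one called. Its footprints measured 4.47, 5.54 and 5.02 CPM in WT and 9.46, 7.67 and 8.35 CPM in KO. The genotypes did not overlap, although the values rest on 34 to 118 reads per library (log2 fold change 0.75, SE 0.13, edgeR FDR 0.0111). The call held in all 6 omissions and ended with the block (FDR 0.106). In RNA-seq Gnaq measured 14.31, 20.08 and 16.94 CPM in WT and 26.77, 18.71 and 23.33 CPM in KO, where KO 2 lay below WT 2 (log2 fold change 0.44, SE 0.17, edgeR FDR 0.178). The authors' deposited table lists Gnaq as significantly up in footprints (log2 fold change 0.51) and as not significant in RNA.

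The Gi genes were not called. Gnai2, an inhibitory alpha subunit that lowers cyclic AMP and carries chemokine receptor signals in lymphocytes, measured 360.1, 348.1 and 374.8 CPM in WT and 325.2, 338.1 and 309.0 CPM in KO RNA-seq. The KO libraries all lay below the WT libraries, as the genotypes were without overlap in 30.9% of all genes in RNA-seq, and the difference was not called (log2 fold change -0.16, SE 0.06, edgeR FDR 0.171). In footprints the means were 605 ± 29.0 in WT and 637 ± 29.3 CPM in KO (n = 3, SD), with overlap (edgeR FDR 0.391). Gnai3, a second inhibitory alpha subunit, had 200 ± 21.1 and 215 ± 21.8 CPM in RNA-seq and 327 ± 10.98 and 340 ± 12.3 CPM in footprints (n = 3, SD; edgeR FDR 0.609 and 0.427).

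Gnas, which encodes the stimulatory alpha subunit, measured 681.4, 677.1 and 691.9 CPM in WT footprints and 712.3, 715.3 and 697.2 CPM in KO. The genotypes did not overlap, as was so in 38.1% of all genes in footprints, and the difference was 0.05 on the log2 scale (SE 0.03, edgeR FDR 0.311). In RNA-seq the Gnas means were 244 ± 8.36 and 234 ± 9.66 CPM (n = 3, SD; edgeR FDR 0.581). The Gnas locus makes several transcripts from different promoters, which a count per gene does not separate. Gna13, which links receptors to RhoA through exchange factors, had 105 ± 2.56 CPM in WT and 112 ± 2.80 in KO footprints (n = 3, SD), also without overlap (log2 fold change 0.11, SE 0.04, edgeR FDR 0.108). Its RNA means were 354 ± 20.2 and 365 ± 18.6 CPM (edgeR FDR 0.726). In footprints the fitted change of each of the 9 genes set against Gnb4 was above 0, beside 48.4% of all genes tested. Of these 9, only Gnaq and Gng2 were called there. In RNA-seq 5 of the 10 members had a change above 0, Gnb4 among them.

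**Figure D3:**
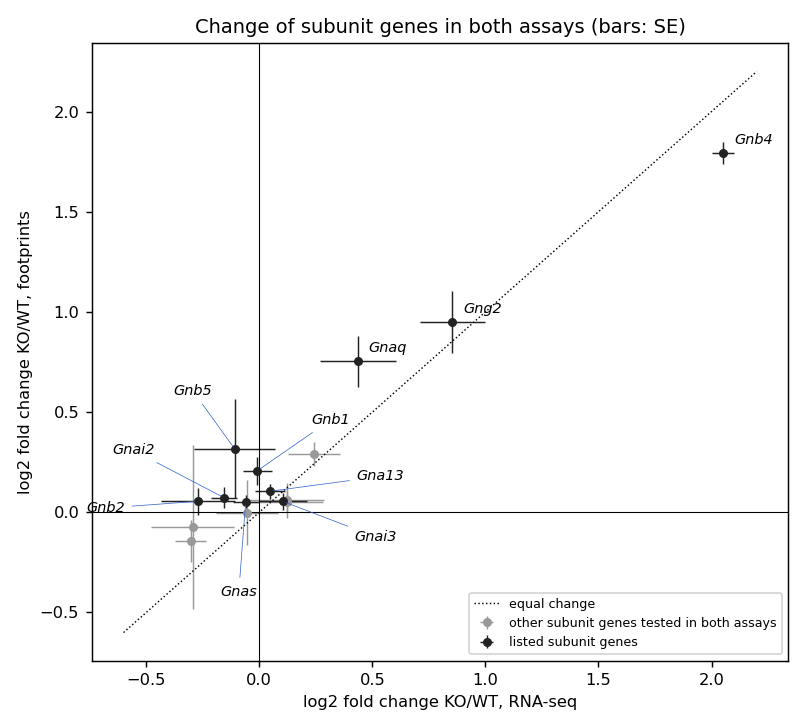
Log2 fold change of KO against WT in RNA-seq (x) and footprints (y) with SE bars, for the 10 listed subunit genes in black and the other subunit genes tested in both assays in grey; the dotted line marks equal change. Gnb4 (2.05 and 1.79) lies apart at upper right, Gng2 and Gnaq lie between it and the cluster near 0.

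Translation was examined as any footprint difference exceeding the RNA difference, tested as an interaction term (genotype by assay) in 1 fit of the 12 libraries. None of the 9 genes set against Gnb4 was called, and of all 11854 genes 0.211% were (edgeR FDR under 0.05), or 1660 at an unadjusted p under 0.05. For Gnb4 the interaction was -0.26 on the log2 scale (SE 0.08), since its footprints were higher in KO by a smaller factor than its RNA. Leaving out any 1 library gave -0.29 to -0.23. This value rests on the contrasts by which Gnb4 was chosen and carries no test. The change was 0.23 for Gnai2 (SE 0.09, edgeR FDR 0.263), 0.21 for Gnb1 (FDR 0.359), 0.31 for Gnaq (FDR 0.569) and 0.10 for Gng2 (FDR 0.896).

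The members differed widely in footprint reads per RNA read. This ratio follows ribosome density but also the part of a transcript that is coding, since footprints come from coding sequence and RNA-seq reads from the whole transcript. In WT, Gnb2 had a log2 ratio of 1.83, above 94.9% of 11853 genes, and Gnas one of 1.49, above 90.8%. Gnai2 (0.75) and Gnai3 (0.71) lay in the upper part of the distribution and Gnb1 (-0.01) near its middle. Gnb4 had -0.60 in WT and -0.87 in KO, below the median of all genes (-0.20 in WT). Gng2 (-1.03), Gna13 (-1.76) and Gnaq (-1.77) were lower still, Gnaq above 12.8% of genes. The order of the members by this ratio thus separated Gnb2 from Gnb4, although their proteins are close relatives.

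**Figure D4:**
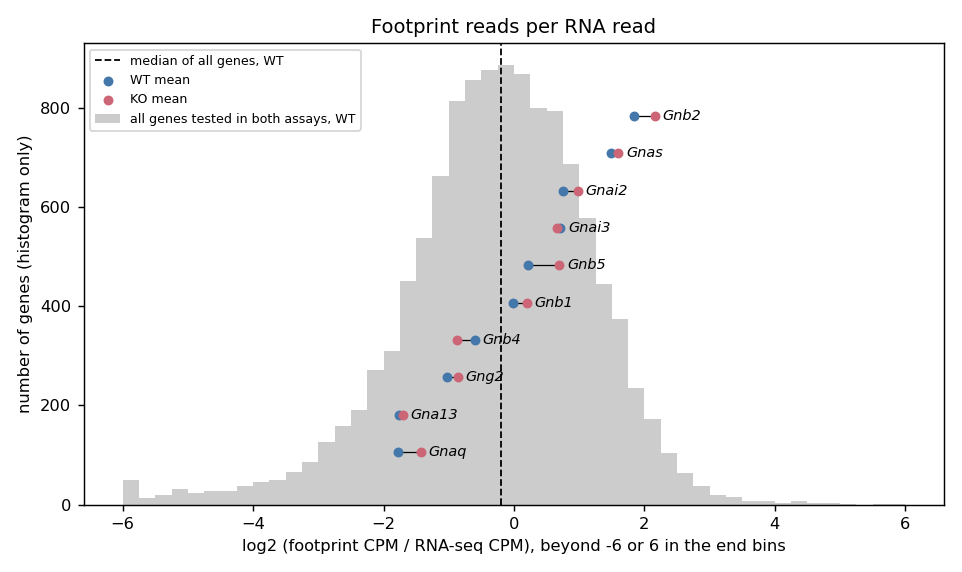
Log2 ratio of footprint CPM to RNA-seq CPM: grey bars count all genes tested in both assays in WT, the dashed line is their median, and points give each member's mean ratio in WT (blue) and KO (red), with heights chosen only to separate the names. Gnb2 and Gnas lie at the upper end, Gna13 and Gnaq at the lower end, and Gnb4 lies left of the median in both genotypes.

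Of the other 23 G protein subunit genes (alpha, beta and gamma), 17 did not pass the low-count filter in RNA-seq, 4 of them with no reads. There 6 passed and none was called, beside 6.91% of all genes, and 6 genes are too few to differ from that share. Their median log2 fold change was 0.03 against -0.00 for all genes. The nearest was Gna12, the relative of Gna13, at 24.9 ± 0.90 CPM in WT and 20.3 ± 0.81 in KO without overlap (n = 3, SD; log2 fold change -0.30, edgeR FDR 0.0536). In footprints 9 passed and 1 was called (11.1%), beside 17.6% of all genes. Gng12, a gamma subunit gene, measured 9.05, 8.84 and 8.91 CPM in WT and 10.76, 10.98 and 11.05 CPM in KO (log2 fold change 0.29, edgeR FDR 0.0433). This call ended with the block (FDR 0.437), without the filter (0.0993), under DESeq2 (adjusted p 0.387) and when any 1 of the 6 libraries was left out (edgeR FDR 0.0687 to 0.172). Gng5 (edgeR FDR 0.701 in RNA-seq and 0.695 in footprints), Gngt2 (0.697 and 0.725) and Gna11 (0.855 and 0.997) were not called. Gnb3, the remaining beta gene, had 5 WT and 9 KO reads in RNA-seq.

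Genes that act on the G protein cycle were read from lists. These were chosen with earlier results of these data known, so the shares called in them carry no test. Of 7 chaperones and exchange factors, none was called in RNA-seq (6.91% of all genes) and 2 in footprints (17.6% of all genes). Gpsm1, a receptor-independent modulator that binds Gi alpha subunits, rose from 11.3 ± 0.31 to 16.2 ± 0.51 CPM (n = 3, SD; log2 fold change 0.50, edgeR FDR 0.0035). Ric8b, a chaperone of Gs-type alpha subunits, fell from 28.3 ± 1.25 to 23.3 ± 1.17 CPM (log2 fold change -0.30, edgeR FDR 0.0184). Both calls ended with the block (FDR 0.115 and 0.277), and that of Ric8b also without WT 1, WT 2, KO 1 or KO 2. The median log2 fold change of the list was 0.11 in footprints, against -0.01 for all genes.

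RGS proteins speed the hydrolysis of GTP by alpha subunits and so end the signal. Of 21 genes, 9 were tested in RNA-seq with 1 called, beside 6.91% of all genes, and 12 in footprints with 2 called higher and 2 lower, beside 17.6%. The list's median log2 fold changes were -0.07 and 0.02. Rgs2, which acts preferentially on Gq, measured 41.27, 42.13 and 42.93 CPM in WT footprints and 77.83, 76.14 and 74.38 CPM in KO. The KO values lay far above the WT values (log2 fold change 0.86, SE 0.04, edgeR FDR 0.000174, and 0.000868 with the block). In RNA-seq Rgs2 rose from 19.2 ± 1.99 to 31.8 ± 3.14 CPM (n = 3, SD; log2 fold change 0.74, edgeR FDR 0.0168). That call ended with the block (FDR 0.111) and without WT 1, WT 3, KO 1 or KO 3. Rgs5 fell in footprints from 3.66 ± 0.32 to 1.82 ± 0.22 CPM (n = 3, SD; log2 fold change -0.95, edgeR FDR 0.00786; block 0.143). Rgs9, with 58 WT and 16 KO reads, fell from 1.25 ± 0.12 to 0.624 ± 0.319 CPM (log2 fold change -1.24, edgeR FDR 0.0289), a call that held in 1 of 6 omissions, that of KO 3, and ended with the block (0.303). The other rise, Rgs10 (log2 fold change 0.50, edgeR FDR 0.0222), lies outside the naming rule and is named after its value was seen.

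Of 21 effector genes, 3 of 15 tested were called in RNA-seq, and 2 higher and 6 lower of 16 in footprints, which is 20% and 50% of the list beside 6.91% and 17.6% of all genes. With the block 1 effector was called in RNA-seq and 1 in footprints, beside 110 of 13652 and 408 of 13509 genes. The list was chosen with earlier results known, so its shares carry no test. The list's median log2 fold changes were -0.02 and 0.03. Adenylyl cyclases make cyclic AMP. In footprints Adcy1, Adcy3, Adcy5 and Adcy6 were called lower and Adcy7 was called higher. Adcy3 and Adcy6 lie outside the naming rule and are named after their values were seen: Adcy6 fell in footprints from 103 ± 2.196 CPM in WT to 79.7 ± 1.72 in KO (edgeR FDR 0.00224, block 0.0543) and Adcy3 from 31.2 ± 0.69 to 26.2 ± 0.65 CPM (edgeR FDR 0.0137, block 0.308). In RNA-seq Adcy6 measured 337 ± 32.97 and 251 ± 27.7 CPM, without overlap and not called (edgeR FDR 0.0672). Adcy1 measured 12.88, 13.25 and 13.64 CPM in WT and 6.14, 5.68 and 5.61 CPM in KO RNA-seq. All 3 KO libraries lay below the WT libraries (log2 fold change -1.19, SE 0.09, edgeR FDR 0.00216, and 0.0338 with the block). In footprints Adcy1 fell by 1.54 on the log2 scale (edgeR FDR 0.0157), a call that ended with the block (0.0791) and without KO 2 (0.0662). Adcy7 rose in both assays, from 94.7 ± 4.94 to 125 ± 6.77 CPM in RNA-seq (n = 3, SD; edgeR FDR 0.0238) and from 37.5 ± 1.404 to 56.5 ± 2.04 CPM in footprints (edgeR FDR 0.00113). The footprint call held with the block (edgeR FDR 0.0139), whereas the RNA call ended with it (0.297) and in each of 6 omissions. Pik3cg, the catalytic subunit of the phosphoinositide 3-kinase that beta-gamma dimers activate, rose from 175 ± 3.87 to 207 ± 3.99 CPM in RNA-seq and from 185 ± 3.33 to 227 ± 3.76 CPM in footprints (n = 3, SD; log2 fold changes 0.25 and 0.29, edgeR FDR 0.0359 and 0.00325). Both calls ended with the block (0.593 and 0.101), and the RNA call also in each omission. Adcy5 was scarce, with 77 WT and 11 KO footprint reads, and fell from 1.63 ± 0.27 to 0.516 ± 0.413 CPM (log2 fold change -2.16, edgeR FDR 0.0157). Its call ended with the block (0.114) and without WT 2, KO 1 or KO 2.

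Receptor kinases and arrestins switch receptors off. Of 7 such genes, none was called in RNA-seq (6.91% of all genes) and 2 rose in footprints (17.6% of all genes). The list's median log2 fold changes were 0.09 and 0.17. Arrb1, beta-arrestin 1, went from 22.10, 20.59 and 20.56 CPM in WT to 31.26, 33.59 and 33.63 CPM in KO. The rise was larger than the spread in either genotype (log2 fold change 0.63, SE 0.06, edgeR FDR 0.00163) and was also called with the block (0.0245). In RNA-seq Arrb1 lay just above the threshold (log2 fold change 0.52, edgeR FDR 0.052). Grk2, a kinase that binds beta-gamma dimers, rose in footprints from 344 ± 15.2 to 427 ± 18.01 CPM (n = 3, SD; log2 fold change 0.31, edgeR FDR 0.00944; block 0.103).

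Of 30 G protein-coupled receptors, 25 were tested in RNA-seq, with 4 called higher and 3 lower. In footprints 28 were tested, with 11 higher and 3 lower. These are 28% and 50% of the tested receptors, beside 6.91% and 17.6% of all genes. With the block 0 receptors were called in RNA-seq and 5 in footprints, beside 110 of 13652 and 408 of 13509 genes. The receptor list was chosen with earlier results of these data known, so its shares carry no test. The list's median log2 fold change was 0.11 in RNA-seq and 0.18 in footprints, and that of all genes -0.00 and -0.01. Cxcr6 and Ccr8, chemokine receptors of mature T cell subsets, fell in both assays. Cxcr6 footprints measured 8.64, 7.78 and 8.34 CPM in WT and 2.23, 2.66 and 2.46 CPM in KO. Its log2 fold change was -1.73 there (edgeR FDR 0.000407, block 0.0034) and -1.51 in RNA-seq (edgeR FDR 0.0175, block 0.144). Ccr8 fell in footprints from 29.4 ± 2.79 to 16.9 ± 1.76 CPM (n = 3, SD; log2 fold change -0.83, edgeR FDR 0.00492, block 0.0168) and by 1.27 on the log2 scale in RNA-seq (edgeR FDR 0.0185, block 0.116). Ccr7, which guides mature thymocytes to the medulla, fell in RNA-seq from 41.2 ± 1.71 to 26.4 ± 1.22 CPM (log2 fold change -0.64, edgeR FDR 0.00621, block 0.11). Its footprints were 133 ± 7.99 and 124 ± 7.39 CPM (n = 3, SD; edgeR FDR 0.309). The RNA calls of Cxcr6 and Ccr8 were lost in 5 and 4 of 6 omissions. The Cxcr6 call held without KO 2, and that of Ccr8 without WT 1 or KO 1.

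Receptors called higher in both assays were Cxcr4, the Gi-coupled receptor that holds immature thymocytes in the cortex, Ptger4, a Gs-coupled prostaglandin receptor, and Gpr65 and Gpr132, a pair of relatives described as proton- or lipid-sensing. Cxcr4 measured 1056, 1097 and 1055 CPM in WT footprints and 1373, 1319 and 1365 CPM in KO. No library overlapped (log2 fold change 0.34, edgeR FDR 0.00285), and in RNA-seq the change was 0.26 (edgeR FDR 0.0454). Ptger4 rose by 0.35 and 0.31 on the log2 scale in RNA-seq and footprints (edgeR FDR 0.0311 and 0.00989), Gpr65 by 0.56 and 0.55 (FDR 0.0071 and 0.0299), and Gpr132 by 0.48 and 0.46 (FDR 0.0202 and 0.00949). With the block, the footprint call of Gpr132 remained (edgeR FDR 0.0388), and the other 7 of these calls ended (FDR 0.0645 to 0.574). Gpr83 and P2ry10, named after their values were seen, were also higher without overlap in both assays and were called in footprints alone (edgeR FDR 0.00119 and 0.0228, block 0.00661 and 0.0443), with an RNA-seq FDR of 0.0936 and 0.166. The RNA calls of Cxcr4, Ptger4 and Gpr132 ended in each of 6 omissions, and the footprint call of Gpr65 without WT 1, WT 2, KO 1 or KO 2. Ptger2, another Gs-coupled prostaglandin receptor, rose in footprints from 1.35 ± 0.14 to 2.60 ± 0.13 CPM (n = 3, SD; log2 fold change 0.98, edgeR FDR 0.00554, block 0.20). Ltb4r1, a leukotriene receptor, had 36 WT and 58 KO footprint reads, 0.845 ± 0.337 and 1.70 ± 0.62 CPM, with overlapping libraries (log2 fold change 1.26, edgeR FDR 0.0402). Its call ended with the block (0.274) and without WT 1, WT 2, KO 1 or KO 2. None of the listed signalling genes was called for translation, the lowest FDR in these lists being 0.0579 (edgeR).

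**Figure D5:**
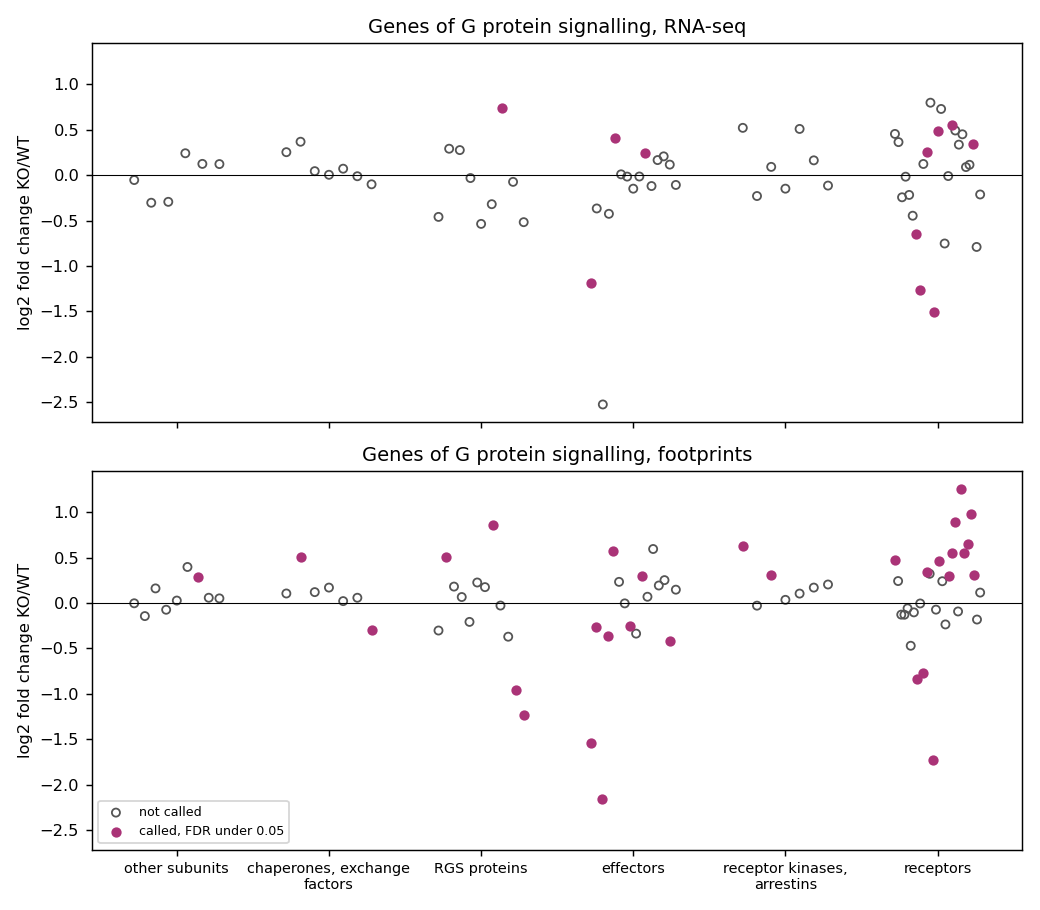
Log2 fold change of KO against WT for the tested genes of 6 lists, RNA-seq above and footprints below; each point is a gene, in alphabetical order within its list, filled where called at an edgeR FDR under 0.05. Called genes lie on both sides of 0, and the receptors hold 11 called rises and 3 called falls in footprints.

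None of the 5 tested genes beside Gnb4 on its chromosome was called in either assay. Of all genes, 6.91% were called in RNA-seq and 17.6% in footprints, and 5 genes are too few to differ from these shares. In the RefSeq order the nearest genes with rows in the tables are Kcnmb3, Zfp639 and Mfn1 on one side and Actl6a, Mrpl47 and Ndufb5 on the other. Kcnmb3 had no RNA-seq read. The other 5 had log2 fold changes of -0.20 to 0.23 in RNA-seq and -0.16 to 0.19 in footprints, with an edgeR FDR of 0.122 or more. Mfn1 overlaps Gnb4 in the RefSeq annotation, and neither counting mode nor strand setting is stated for these counts. Mfn1 had 26.3 ± 4.26 CPM in WT and 30.4 ± 5.46 in KO RNA-seq (n = 3, SD), and its footprints were 42.1 ± 3.68 and 40.8 ± 3.70 CPM.

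The 5 genes whose pattern over the 12 libraries was most like that of Gnb4, by the root mean square difference of log2 CPM centred within each assay, were Gm14085 (0.17), Gm37534 (0.18), A430106G13Rik (0.23), Pttg1 (0.23) and Gm48321 (0.26), among 11853 genes. Pttg1 encodes securin, which blocks the separation of sister chromatids until anaphase. It had 11.9 ± 1.46 CPM in WT and 37.3 ± 4.07 in KO RNA-seq, and 24.9 ± 1.89 and 108 ± 7.80 CPM in footprints (n = 3, SD). Gm14085 had 12.4 ± 0.57 and 42.7 ± 2.21 CPM in RNA-seq and 8.96 ± 1.57 and 27.96 ± 4.57 CPM in footprints (n = 3, SD). No subunit gene was among the 5. This follows from the smaller changes of the other members, of which Gng2 had the largest (log2 fold change 0.85 in RNA-seq and 0.95 in footprints). The likeness rests largely on the difference by which Gnb4 was chosen.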

How the data were processed

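RNA-seq and ribosome footprint libraries of WT and KO thymocytes were analysed, 12 in all. Per the submitters' processing notes the authors used FastQC, Bowtie2 2.5.1, STAR 2.7.10a, HTSeq 2.0.3 and DESeq2 1.40.2. The deposited values are whole-number counts per gene, 1 table per assay, named as adjusted. How they were adjusted, and the build, gene models and strandedness, is not given in the sources used here. Rows that name no gene (5 per table) held 71.5% to 73.0% of RNA-seq and 26.9% to 27.8% of footprint counts and were left out. The authors' deposited tables of their own comparison supplied log2 fold changes and p-values where named, and 12 columns of per-library values there were not used.

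KO was compared with WT separately in each assay by edgeR 4.0.16's quasi-likelihood test (R 4.3.3, limma 3.58.1) after TMM normalization and filterByExpr at a minimum count of 10, called at a Benjamini-Hochberg FDR under 0.05. Translation was the interaction of genotype and assay over 12 libraries, TMM within each assay. CPM were computed here from TMM-scaled totals, and the SE is the log2 fold change divided by the root of the F statistic. The design names 3 mice per genotype. The p-values rest on the spread between these deposited libraries, which may not be the spread between mice. The fits were checked on simulated counts drawn independently for each library. Such counts lack the mirrored deviations of the deposited ones, so the check does not bear on the SEs and p-values given here.

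The members and lists were chosen with earlier results of these data known. Named genes are the 10 members, other subunit genes that passed the filter, the 3 largest called changes of each other list and assay, receptors and effectors called in both assays, 3 neighbours on either side of Gnb4 and the 5 genes most like it. Alternatives were RLE size factors, no filter, DESeq2 1.42.0, the replicate number as a block and the omission of each library. Intervals of counting error cover counting only.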

Additional observations from a re-analysis of the deposited data

How the results depend on the processing

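DESeq2 called 532 genes in RNA-seq, 1235 in footprints and 44 for translation, of which 420, 1136 and 17 were among the 943, 2376 and 25 called by edgeR. With the replicate number as a block, edgeR called 110 genes in RNA-seq and 408 in footprints, all among the main calls, and 2 for translation with the block within each assay. Same-numbered libraries of WT and KO deviated in opposite directions (correlations given in the report). The numbers thus link the libraries, by mirrored and not by shared deviations. What the numbers stand for is not stated. A block on the number removes shared deviations and leaves mirrored ones, so its results are a limited check. With the block, 26 results lost their call and 36 kept their side of the threshold, and none changed direction. Omitting 1 library left 215 to 323 calls in RNA-seq, 1035 to 1554 in footprints and 6 to 24 for translation. Of the other subunit genes, 0 were called in footprints without the low-count filter, under DESeq2, with the block and in every omission (0 to 0).

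The log2 fold change of Gnb4 in RNA-seq ranged from 2.04 to 2.06 over the omissions (2.037 without WT 1). No RLE, DESeq2 or no-filter fit reversed a direction. Omissions reversed only uncalled changes near 0: Gna13 in RNA-seq (-0.001 to 0.074), Gnb1 in RNA-seq (-0.037 to 0.029), Gnb5 in RNA-seq (-0.243 to 0.012), Mfn1 in footprints (-0.118 to 0.025), and for translation Gnai3 (-0.114 to 0.03) and Gng2 (-0.017 to 0.207). The cause was not tested. Depth limits genes of few reads such as Gnb5, Rgs9, Adcy5 and Ltb4r1, and the footprint library KO 3 was the shallowest.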
